A study of Mus musculus with 2 samples.

Results

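The genes described here are 10 markers of the macrophages that live in the fat pad: C1qa, C1qb, C1qc, Csf1r, Mrc1, Cd14, Cd68, Lyz2, Lgals3 and Aif1. They were chosen by name, and all 10 were found among the 38396 gene rows of the table. Their levels were read in RNA recovered with an antibody against HuR from epididymal white fat (eWAT) of mice. HuR, encoded by Elavl1, is an RNA-binding protein that recognises AU-rich and U-rich stretches, often in 3′ untranslated regions (3′ UTRs), and many of its targets are mRNAs of inflammatory and growth-control proteins.

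The HuR-FKO mice carried floxed HuR alleles together with adiponectin-Cre, a transgene whose promoter is active in adipocytes and not in macrophages. The control mice were littermates with the same floxed alleles and no Cre. Both genotypes were 6 weeks old, and the floxed line had been backcrossed to C57BL/6 mice for 2 generations. RNA immunoprecipitation (RIP) with a HuR antibody and sequencing gave 1 library per genotype, and no input or non-specific antibody library was analysed here. Without a second library of either genotype, no difference below has a replicate check, an SD or a p-value, and each comparison is one of 2 libraries.

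Macrophages enter fat as monocytes or renew themselves in place, and they clear dead adipocytes, lipid and debris. Resident fat macrophages are known for high levels of the complement chains of C1q and of the mannose receptor Mrc1, while Csf1r carries the growth signal on which they depend. Because Cre is not expected to act in these cells, their own HuR gene should be intact in both genotypes, within tissue in which adipocytes were the target. The RNA came from bulk tissue, and which cells gave the RNA of each marker was not tested.

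The values are FPKM, which divide the fragments of a gene by its transcript length and by the number of fragments the library had mapped. The targeted gene went against its label on this scale. Elavl1 had 26.1 FPKM in the library labelled HuR-FKO and 16.6 FPKM in the library labelled control, 1.57-fold higher in the HuR-FKO-labelled library. Most genes had higher values in that library too. Against the median ratio of genes at 5 FPKM in either library, Elavl1 was 2.97-fold below. Its ratio of 1.57 was also under the smaller median of 2.86, that of genes at 5 FPKM in both libraries. Whether the labels are exchanged cannot be settled from 1 library per genotype, so the libraries are called by their labels throughout and every direction below depends on those labels. Adipocyte markers were abundant in both, as the tissue label states: Fabp4, a fatty acid carrier, had 16670.1 FPKM in the HuR-FKO-labelled library and 6444 FPKM in the control-labelled library. All 10 listed genes of the epididymal epithelium, the neighbouring organ, were listed at 0 in both libraries, against 30.4% of all protein-coding genes.

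The scale of the 2 libraries differed for nearly every gene. Among 5571 protein-coding genes that reached 5 FPKM in at least 1 of the 2 libraries, the median ratio was 4.66-fold higher in the HuR-FKO-labelled library, a log2 of 2.22, with quartiles at 1.34 and 3.22. The filter of 5 FPKM in either library was passed by 5391 genes through the HuR-FKO-labelled library and by 2411 through the control-labelled library. Over the 2231 genes that passed in both, the median was 2.86-fold (log2 1.52). This alternative was added after the data had been seen. A marker is therefore given below both by its ratio as deposited and by its place relative to these medians.

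The 3 chains of C1q, the recognition molecule that starts the classical complement pathway, were among the most abundant of the markers. C1qa had 69.9 FPKM in the HuR-FKO-labelled library and 25.8 FPKM in the control-labelled library. C1qb had 38.6 FPKM in the HuR-FKO-labelled library and 12.1 FPKM in the control-labelled library. C1qc had 40.4 FPKM in the HuR-FKO-labelled library and 12.3 FPKM in the control-labelled library. All chains were thus higher in the HuR-FKO-labelled library, by 2.71-fold for C1qa, 3.18-fold for C1qb and 3.29-fold for C1qc, a direction that turned for C1qa under 3 other scalings of the libraries and for C1qb and C1qc under 1 of them. All lay below the median ratio of 4.66-fold. Against the 2.86-fold of genes at 5 FPKM in both libraries, C1qb lay 0.15 and C1qc 0.20 above on the log2 scale, and C1qa 0.080 below. The chains join in equal numbers in the C1q protein, and their RNA kept the same order in both libraries: C1qc over C1qb was 1.04 in the HuR-FKO-labelled library and 1.01 in the control-labelled library. C1qa over C1qb was 1.81 in the HuR-FKO-labelled library and 2.12 in the control-labelled library.

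The C1q genes sit side by side on chromosome 4 (mm10), C1qb at 136880129 to 136886187, C1qc at 136889804 to 136893065 and C1qa at 136895917 to 136898803. Their rank among the protein-coding genes, which no scaling of a library can move, hardly changed for 2 of them. C1qb was gene number 1270 from the top in the HuR-FKO-labelled library and 1242 in the control-labelled library, and C1qc was 1220 in the HuR-FKO-labelled library and 1226 in the control-labelled library. C1qa stood lower in the HuR-FKO-labelled library, at 758, than in the control-labelled library, at 664.

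**Figure D1:**
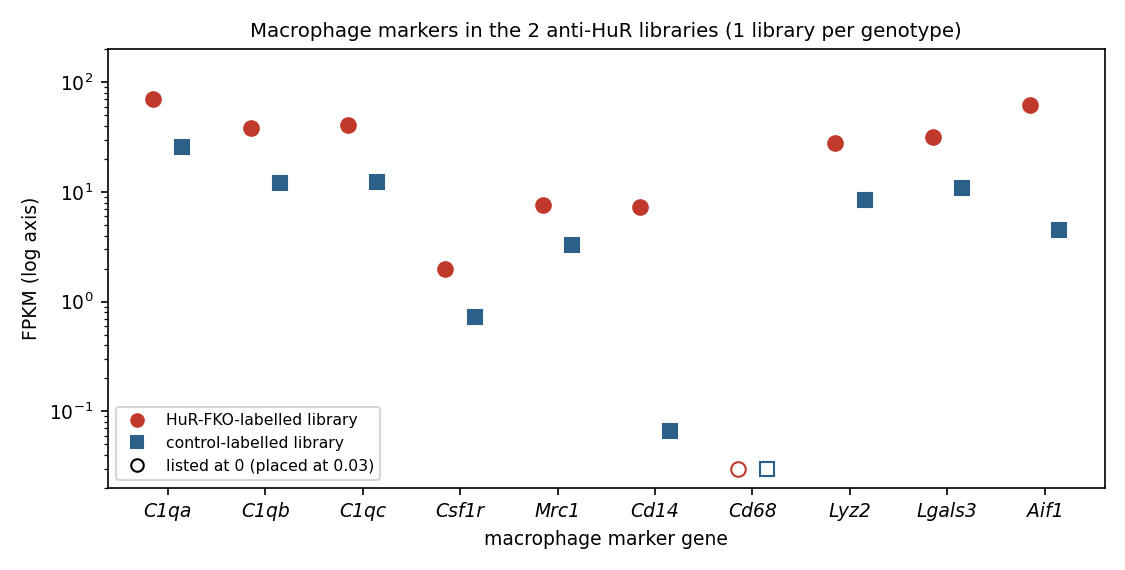
FPKM of each of the 10 macrophage markers (x axis) on a log axis (y axis), with circles for the HuR-FKO-labelled library and squares for the control-labelled library, 1 library each and so no error bars. The 9 detected markers lie higher in the HuR-FKO-labelled library, a direction that turned for 7 of them under other scalings. Of all protein-coding genes at 5 FPKM in either library, 82.4% were at least 2-fold higher there. The widest gaps are at Cd14 (7.27 FPKM HuR-FKO-labelled, 0.066 FPKM control-labelled) and Aif1 (61.4 FPKM HuR-FKO-labelled, 4.53 FPKM control-labelled). Cd68 is listed at 0 in both (open symbols placed at 0.03).

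Of the surface receptors, Csf1r and Mrc1 had ratios like those of the C1q chains and turned direction under 3 other scalings, and Cd14 did neither. Csf1r, the receptor of the growth factors CSF1 and IL-34, had 1.96 FPKM in the HuR-FKO-labelled library and 0.723 FPKM in the control-labelled library, a ratio of 2.71, and stayed under the filter in both. Mrc1 (CD206), which takes up mannose-bearing glycoproteins, had 7.55 FPKM in the HuR-FKO-labelled library and 3.26 FPKM in the control-labelled library. Its ratio of 2.31 was the smallest of the markers, 1.01 below the median of genes on the log2 scale. Mrc1 spans positions 14229414 to 14332057 of chromosome 2, and the microRNA gene Mir511 within it was listed at 0 in both libraries. Csf1r shares 16.4% of its 50-base windows with Hmgxb3, a gene on the opposite strand, which was listed at 0 in the HuR-FKO-labelled library and had 0.0738 FPKM in the control-labelled library.

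Cd14, the co-receptor that hands lipopolysaccharide to Toll-like receptor 4, had 7.27 FPKM in the HuR-FKO-labelled library and 0.066 FPKM in the control-labelled library. The ratio was 110, or 72.7 once values under 0.1 FPKM were raised to 0.1. Its size is poorly fixed, because the control value corresponds to about 0.906 fragments against 161 in the HuR-FKO-labelled library, and the counting interval of the ratio ran from 17.7 to 3973. The whole interval lay above the median ratio of genes. Among protein-coding genes Cd14 ranked 4374 in the HuR-FKO-labelled library and 10697 in the control-labelled library.

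Fragments per gene are not in the table and were estimated here from library totals read off the steps between low FPKM values, 17620000 fragments for the HuR-FKO-labelled library and 10940000 for the control-labelled library. A stricter reading of the steps gave 36320000 for the HuR-FKO-labelled library, and only 25.5% of its low values came out whole within 0.05, so fragment numbers are approximate. The 95% intervals (exact Clopper-Pearson, conditional on the sum of both libraries) cover counting error only, not the spread between mice.

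**Figure D2:**
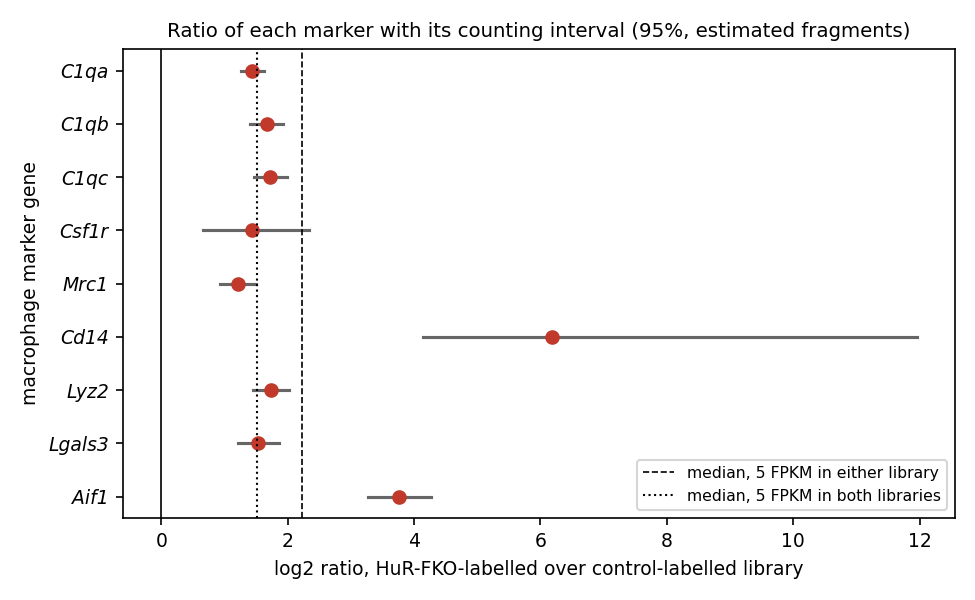
Log2 ratio of the HuR-FKO-labelled over the control-labelled library (x axis) for the 9 markers with a ratio (y axis), with bars for the 95% counting interval. The dashed line is the median of genes at 5 FPKM in either library (2.22) and the dotted line that of genes at 5 FPKM in both (1.52). Aif1 (3.76) and Cd14 (6.18, with its control value raised to 0.1 FPKM) stand apart, and the other 7 points lie between 1.21 and 1.74.

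Of the lysosomal and secreted proteins, Lyz2 and Lgals3 had nearly the same ratio. Lyz2, the lysozyme of macrophages and other myeloid cells, had 27.9 FPKM in the HuR-FKO-labelled library and 8.37 FPKM in the control-labelled library, 3.33-fold higher in the HuR-FKO-labelled library with a counting interval from 2.73 to 4.06. Lgals3 (galectin-3), a lectin that binds galactose-bearing sugars and is abundant in activated macrophages, had 31.4 FPKM in the HuR-FKO-labelled library and 10.9 FPKM in the control-labelled library, 2.89-fold higher in the HuR-FKO-labelled library with an interval from 2.33 to 3.64. The direction turned for Lgals3 under 3 other scalings and for Lyz2 under 1. Both lay below the median ratio of genes at 5 FPKM in either library, Lyz2 by 0.49 and Lgals3 by 0.69 on the log2 scale. Against the median of genes at 5 FPKM in both libraries they lay above, Lyz2 by 0.22 and Lgals3 by 0.013. Lyz2 kept its rank, 1672 in the HuR-FKO-labelled library and 1664 in the control-labelled library. Lgals3 lies at 47367751 to 47386160 of chromosome 14.

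Cd68, the lysosomal glycoprotein most used to stain macrophages, was listed at 0 in both libraries. For a transcript of its length, 3 fragments would have given 0.179 FPKM in the HuR-FKO-labelled library and 0.289 FPKM in the control-labelled library at the estimated totals. A value of exactly 0 in these files can also be a failed estimate, and 6417 protein-coding genes (30.4%) were listed at 0 in both. Among genes every cell uses, 3 of 79 ribosomal protein genes, 1 of 39 proteasome genes and 0 of 12 RNA polymerase II genes were at 0 in a library. These 4 were Rpl10l, Rpl39l, Rpl3l and Psma8, members of those families with restricted expression. Cd68 sits at 69664213 to 69666153 of chromosome 11, between 2 well-detected genes. Eif4a1, 782 bases away, had 100 FPKM in the HuR-FKO-labelled library and 47.5 FPKM in the control-labelled library, and Mpdu1, 1570 bases away, had 40.2 FPKM in the HuR-FKO-labelled library and 14.4 FPKM in the control-labelled library. Whether Cd68 RNA was absent from the precipitate or lost in the estimate was not tested.

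Aif1 (IBA1), an actin-binding protein of macrophages and microglia, differed most among the well-detected markers. It had 61.4 FPKM in the HuR-FKO-labelled library and 4.53 FPKM in the control-labelled library, 13.5-fold higher in the HuR-FKO-labelled library with a counting interval from 9.62 to 19.3. This was 2.91-fold above the median ratio of genes, and 83.3% of genes had a lower ratio. Aif1 came next after C1qa in the HuR-FKO-labelled library, with 0.878 of its level, while in the control-labelled library it had 0.176 of it. Its rank was 867 in the HuR-FKO-labelled library and 2559 in the control-labelled library. Aif1 lies at 35170991 to 35176068 of chromosome 17 and shares no 50-base window with another gene, and its relative Aif1l was listed at 0 in both libraries.

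As a group, 9 of the 10 markers had a ratio and on the deposited scale all 9 were at least 2-fold higher in the HuR-FKO-labelled library, where 82.4% of all genes at the filter were so. None was at least 2-fold higher in the control-labelled library, against 3.21% of genes. Relative to the median ratio, 2 markers, Aif1 and Cd14, lay at least 2-fold above it (25.0% of genes) and 1, Mrc1, at least 2-fold below it (21.8% of genes). Read against the shares of all genes, the count of 9 says little about macrophage RNA in particular. Only 8 markers passed the filter, 5 of them in both libraries and 3 (Mrc1, Cd14 and Aif1) through the HuR-FKO-labelled library alone, so no support is drawn from the number that passed.

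The median of the 9 ratios was 3.18-fold (log2 1.67), which is 0.55 below the median of genes on the log2 scale. With the median taken over genes at 5 FPKM in both libraries it was 0.15 above, and 6 of 9 markers then lay above the median in place of 2. The place of the group relative to all genes therefore turned with the filter, while the spread within it did not depend on it. All 9 ratios ran from 2.31 to 72.7. Apart from Aif1 and Cd14, the other 7 ran from 2.31 to 3.33, with an SD of 0.19 on the log2 scale. These 7 were set apart after their values were seen, which by itself narrows the range. It is therefore a description only and is not compared with the spread of all genes.

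Other scalings of the libraries moved every ratio by 1 constant. Centring each library on its median, scaling to the upper quartile or scaling to the sum of long protein-coding genes lowered the log2 ratios by 1.67, 1.61 or 1.78, after which 37.0%, 38.4% or 34.4% of genes were at least 2-fold higher in the HuR-FKO-labelled library and 12.7%, 12.03% or 13.9% at least 2-fold higher in the control-labelled library. Only Aif1 and Cd14 of the markers stayed at least 2-fold higher in the HuR-FKO-labelled library under these 3 scalings. C1qa, Csf1r, Mrc1 and Lgals3 became slightly lower in it under all 3, and C1qb, C1qc and Lyz2 under the scaling to long genes alone. Scaling to a common sum of all FPKM (TPM) raised the ratios by 1.36, with 94.8% of genes at least 2-fold higher in the HuR-FKO-labelled library and 1.15% in the control-labelled library. As a share of the summed FPKM of protein-coding genes of 300 bases or more, the 10 markers took 0.0697% in the HuR-FKO-labelled library and 0.0651% in the control-labelled library. Without Aif1 and Cd14 the order turned, with 0.0530% in the HuR-FKO-labelled library and 0.0613% in the control-labelled library. In bulk tissue, more or fewer macrophages, more or less RNA of a gene per cell and a better or poorer recovery by the antibody cannot be told apart.

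**Figure D3:**
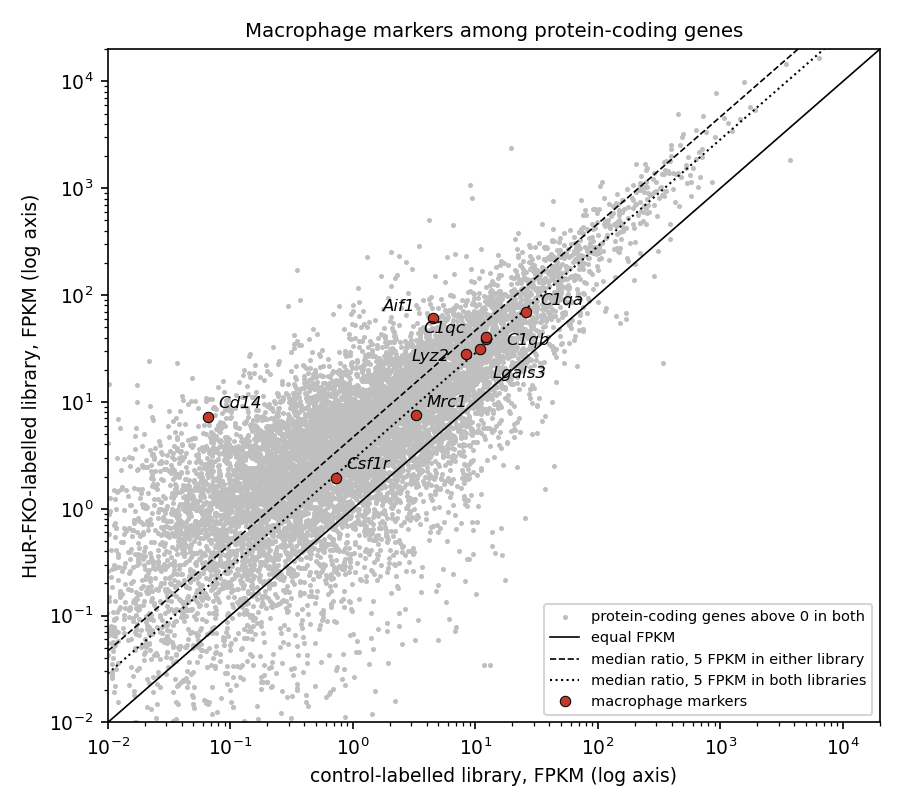
FPKM of protein-coding genes above 0 in both libraries (grey), in the HuR-FKO-labelled library (y axis) and the control-labelled library (x axis), both on log axes, with the macrophage markers in red. The solid line marks equal FPKM, and the dashed and dotted lines mark the median ratios of 4.66 and 2.86. The 7 markers other than Aif1 and Cd14 run along the dotted line from Csf1r to C1qa.

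HuR is known to bind AU-rich elements, whose simplest unit is the pentamer ATTTA, so the 3′ UTRs of the markers were read from the GENCODE annotation of mm10. At least 1 ATTTA on the transcribed strand was present in the longest 3′ UTR of 5 of the 10 markers, against 65.6% of 20352 protein-coding genes. Their 3′ UTRs were short, with a median of 238 bases against 971 bases over all genes. Mrc1 held 5 pentamers in 882 bases and Csf1r 3 in 1669 bases, while C1qc, Cd14 and Lgals3 held 1 each. C1qa, C1qb, Cd68, Lyz2 and Aif1 held none. A run of TTTTT was present in 4 of 10, against 72.6% of genes, and Mrc1 again held the most, at 9, followed by C1qc with 3 and by Cd14 and Lgals3 with 2 each.

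The sites below show what the pentamer looks like in 3 of the 5 markers that have it, with those of Csf1r and Cd14 not shown, as 30 bases of the transcribed strand with ATTTA in capitals. For Mrc1 the first and the fourth of its 5 are shown, at 158 and 695 bases after the stop codon. C1qc carries its site at 168 bases and Lgals3 at 92 bases after the stop codon.
C1qc, chr4:136889858-136889887, minus strand: attcctgtggccATTTAtcaataccttatg
Mrc1, chr2:14331321-14331350, plus strand: caataattgctcATTTActatcctggcaag
Mrc1, chr2:14331858-14331887, plus strand: ataaataatgctATTTAttatctaattaat
Lgals3, chr14:47385760-47385789, plus strand: tgtaagacatccATTTAataaagtctcatg

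The count of pentamers did not sort the markers by ratio. Aif1, with none, had the second highest ratio (13.5) and Mrc1, with 5, the lowest (2.31), while Cd14, with 1, had the highest. Over all genes at the filter the classes were close together: the median log2 ratio was 2.25 in 1933 genes with no ATTTA, 2.23 in 1748 genes with 1 or 2, and 2.18 in 1815 genes with 3 or more. A match of letters is not a binding site, and whether HuR bound any of these was not measured per site.

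Lyz2 has a close copy beside it, and its value depends on how shared reads were divided. Lyz1, the lysozyme of the intestinal Paneth cell, lies beside Lyz2 on chromosome 10 and differs from it at 22 of 447 coding bases (95.1% identity). Of the 50-base windows of Lyz2, 15.4% occur unchanged in Lyz1. In the stretch with 7 differences shown here, coding bases 103 to 132 with the differing bases in capitals, a read can be told apart.
Lyz2, chr10:117282111-117282140, minus strand: atggCtggctacTAtggAgtcaGCctggcC
Lyz1, chr10:117292707-117292736, minus strand: atggAtggctacCGtggTgtcaAGctggcT
Lyz1 had 5.38 FPKM in the HuR-FKO-labelled library and 7.28 FPKM in the control-labelled library, 1.35-fold higher in the control-labelled library and so against the direction of Lyz2. Summed over both genes, the level was 33.3 FPKM in the HuR-FKO-labelled library and 15.6 FPKM in the control-labelled library, 2.12-fold higher in the HuR-FKO-labelled library. How far the ratio of 3.33 for Lyz2 depends on the division of shared reads was not tested, and the summed ratio does not bound it.

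Other genes of macrophages and myeloid cells also had mostly higher values in the HuR-FKO-labelled library, in no larger share than genes at large. Of 86 listed, 85 were in the table and 35 reached the filter. At least 2-fold higher values in the HuR-FKO-labelled library were found for 25 of these 35, against 82.4% of all genes. None of the 35 was at least 2-fold higher in the control-labelled library, and 3, Laptm5, Clec10a and Ifitm3, were higher there by less. The median log2 ratio was 1.90, 0.32 below that of all genes, with 15 above and 20 below it. The counts of each list below are to be read against the same 82.4% and the median of all genes, 2.22. The 3 scalings that lower every log2 ratio by 1.61 to 1.78 bring the median of a list to about 0 or below where it is smaller than that, as in the lists of general and resident macrophage markers and of monocytes.

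Among general macrophage and myeloid markers, 4 of 7 at the filter were at least 2-fold higher in the HuR-FKO-labelled library (82.4% of all genes), with a median log2 of 1.60. Adgre1, which encodes F4/80, had 2.38 FPKM in the HuR-FKO-labelled library and 0.891 FPKM in the control-labelled library, a ratio of 2.68 close to that of Csf1r. Tyrobp, the adaptor that carries signals of many myeloid receptors, had 26.4 FPKM in the HuR-FKO-labelled library and 2.00 FPKM in the control-labelled library. Its ratio of 13.2 was the nearest to that of Aif1 in this list. Cd52, a surface glycoprotein of leukocytes, had 136 FPKM in the HuR-FKO-labelled library and 36.6 FPKM in the control-labelled library, and Sirpa, the receptor of CD47, had 25.8 FPKM in the HuR-FKO-labelled library and 8.52 FPKM in the control-labelled library. Fcer1g, the gamma chain shared by Fc receptors, differed less, with 18.6 FPKM in the HuR-FKO-labelled library and 10.7 FPKM in the control-labelled library. Laptm5, a lysosomal membrane protein of leukocytes, went the other way, with 13.5 FPKM in the HuR-FKO-labelled library and 16.6 FPKM in the control-labelled library. So did Fcgr3, Ptprc and Ncf1 under the filter. The Fc receptor Fcgr3 had 1.58 FPKM, the leukocyte phosphatase Ptprc 0.0344 FPKM and Ncf1 0.153 FPKM in the HuR-FKO-labelled library. In the control-labelled library Fcgr3 had 1.73 FPKM, Ptprc 0.19 FPKM and Ncf1 0.189 FPKM. The other genes of this list under the filter were higher in the HuR-FKO-labelled library.

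Of the genes of resident fat macrophages, 5 of 7 at the filter were at least 2-fold higher in the HuR-FKO-labelled library (82.4% of all genes), with a median log2 of 1.62. Stab1, a scavenger receptor, was the most abundant, with 207 FPKM in the HuR-FKO-labelled library and 67.2 FPKM in the control-labelled library. Its ratio of 3.08 fell inside the range of the 7 similar markers. Ccl8, a chemokine, had 35.5 FPKM in the HuR-FKO-labelled library and 3.52 FPKM in the control-labelled library. Gas6, a ligand of receptors that take up dying cells, had 24.2 FPKM in the HuR-FKO-labelled library and 10.9 FPKM in the control-labelled library. Clec10a, a galactose-type lectin, was nearly level, with 23.9 FPKM in the HuR-FKO-labelled library and 26.3 FPKM in the control-labelled library. The genes of this list under the filter went both ways. Folr2 (0.988 FPKM HuR-FKO-labelled, 1.34 FPKM control-labelled) and Timd4 (0 and 0.0917 FPKM) were higher in the control-labelled library. Cd163 (4.89 and 0.786 FPKM), Lyve1 (0.653 and 0.0376 FPKM), Cd209f and Cbr2 were higher in the HuR-FKO-labelled library. Vsig4 was listed at 0 in both.

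Genes of lipid-associated macrophages, the cells that surround and digest dying adipocytes, were at least 2-fold higher in the HuR-FKO-labelled library for 7 of 8 at the filter (82.4% of all genes), with a median log2 of 2.12, just under that of all genes. Trem2, the receptor that defines these cells, lay under the filter and was 2.66-fold higher in the control-labelled library, with 0.319 FPKM in the HuR-FKO-labelled library and 0.847 FPKM in the control-labelled library. These values rest on about 10.5 and 17.3 fragments. Spp1 (4.41 FPKM), Itgax (0.451 FPKM) and Gpnmb (0.391 FPKM in the HuR-FKO-labelled library), also under the filter, went the other way. In the control-labelled library Spp1 and Itgax were listed at 0 and Gpnmb had 0.0151 FPKM. The lysosomal proteases Ctsd (232 FPKM in the HuR-FKO-labelled library and 59.5 FPKM in the control-labelled library) and Ctsb (167 FPKM in the HuR-FKO-labelled library and 30.3 FPKM in the control-labelled library) led the list. Plin2 and Npc2, a lipid droplet coat protein and a cholesterol carrier, were also abundant, and adipocytes express them too. Of monocyte and dendritic cell genes, 3 of 5 at the filter were at least 2-fold higher in the HuR-FKO-labelled library (82.4% of all genes), with a median log2 of 1.22. H2-Ab1, a chain of the antigen-presenting class II molecule, had 413 FPKM in the HuR-FKO-labelled library and 43.2 FPKM in the control-labelled library. Its partner chain H2-Aa was much closer, with 31.3 FPKM in the HuR-FKO-labelled library and 24.1 FPKM in the control-labelled library. The interferon-induced Ifitm3 was lower, with 6.38 FPKM in the HuR-FKO-labelled library and 8.30 FPKM in the control-labelled library, and so was Ly6c2, a marker of classical monocytes under the filter, with 0.867 FPKM in the HuR-FKO-labelled library and 3.35 FPKM in the control-labelled library. The other genes of that list under the filter, Ccr2, Cx3cr1, Flt3, Zbtb46, Xcr1 and Cd209a, were higher in the HuR-FKO-labelled library.

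Inflammatory cytokines and chemokines were mostly undetected. Of 15 listed, 8 were at 0 in both libraries, against 30.4% of all protein-coding genes. These were Tnf, Il1b, Il6, Il10, Ccl4, Cxcl2, Cxcl10 and Nos2. Only 2 reached the filter: Saa3, an acute-phase protein, had 48.0 FPKM in the HuR-FKO-labelled library and 4.40 FPKM in the control-labelled library, and Ccl7, a chemokine for monocytes, had 7.51 FPKM in the HuR-FKO-labelled library and was listed at 0 in the control-labelled library. The remaining genes lay under the filter and went both ways. The chemokines Ccl2 and Ccl5 were listed at 0 in the HuR-FKO-labelled library and had 1.92 FPKM (Ccl2) and 0.823 FPKM (Ccl5) in the control-labelled library. Ccl3 (1.83 FPKM), Arg1 (1.62 FPKM) and Ptgs2 (1.07 FPKM) were detected in the HuR-FKO-labelled library and listed at 0 in the control-labelled library. Of the macrophage transcription factors, 4 of 6 at the filter were at least 2-fold higher in the HuR-FKO-labelled library (82.4% of all genes). Cebpb was the most abundant, with 188 FPKM in the HuR-FKO-labelled library and 98.9 FPKM in the control-labelled library, and it is expressed in adipocytes as well.

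The pathways in which single markers act were detected in part. For Csf1r, the ligand Csf1 had 10.4 FPKM in the HuR-FKO-labelled library and 0.0949 FPKM in the control-labelled library, and the other ligand, Il34, had 5.04 FPKM in the HuR-FKO-labelled library and 2.105 FPKM in the control-labelled library. Of the CSF1 receptor list, 5 of 6 at the filter were at least 2-fold higher in the HuR-FKO-labelled library (82.4% of all genes) and 1, the phosphatase gene Inpp5d, was 2.29-fold higher in the control-labelled library. For Cd14, the receptor Tlr4 was nearly level, with 0.675 FPKM in the HuR-FKO-labelled library and 0.554 FPKM in the control-labelled library. Its partner Ly96 (MD-2) had 6.25 FPKM in the HuR-FKO-labelled library and 1.54 FPKM in the control-labelled library, and Lbp, which delivers lipopolysaccharide to CD14, had 19.9 FPKM in the HuR-FKO-labelled library and 3.44 FPKM in the control-labelled library. In all, 5 of 6 genes of that list at the filter, Cd14 itself among them, were at least 2-fold higher in the HuR-FKO-labelled library (82.4% of all genes).

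The complement cascade, which C1q opens, had 14 of 16 genes at the filter at least 2-fold higher in the HuR-FKO-labelled library (82.4% of all genes), with a median log2 of 2.099, under the 2.22 of all genes. The C1q chains are themselves part of this list and of its counts. C2, C3, C4a, C4b and Cfb, which act after C1q or in the alternative pathway, had larger ratios than the C1q chains, and C1ra, C1s1, Cfp and the receptor C5ar1 had smaller ones. C3, the central component, had 1047 FPKM in the HuR-FKO-labelled library and 104 FPKM in the control-labelled library, and C4b, which C1s cleaves, had 236 FPKM in the HuR-FKO-labelled library and 15.4 FPKM in the control-labelled library. C4b and C4a, at 127 FPKM in the HuR-FKO-labelled library and 6.28 FPKM in the control-labelled library, are near-identical copies between which reads could have been divided. Cfd (adipsin), a product of adipocytes, had 9814 FPKM in the HuR-FKO-labelled library and 1568 FPKM in the control-labelled library. C1s1, the protease that rides on C1q, had 18.2 FPKM in the HuR-FKO-labelled library and 15.3 FPKM in the control-labelled library.

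The galectin list also held Lgals3bp, which encodes a galectin-binding protein and not a galectin. All 6 genes of this list at the filter were at least 2-fold higher in the HuR-FKO-labelled library (82.4% of all genes), with a median log2 of 2.48. Lgals3 (2.89-fold) lay toward the lower end of them, and Lgals1 was the most abundant, with 634 FPKM in the HuR-FKO-labelled library and 101 FPKM in the control-labelled library. Lgals12, the galectin of adipocytes, had 18.5 FPKM in the HuR-FKO-labelled library and 3.70 FPKM in the control-labelled library. Of the close relatives of the markers, 3 of 4 at the filter were at least 2-fold higher in the HuR-FKO-labelled library (82.4% of all genes). Lamp1 and Lamp2, lysosomal membrane proteins of the family of Cd68, were both well detected: Lamp1 had 175 FPKM in the HuR-FKO-labelled library and 76.3 FPKM in the control-labelled library, and Lamp2 had 28.9 FPKM in the HuR-FKO-labelled library and 12.5 FPKM in the control-labelled library.

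Most markers of the other main cell types of the fat pad also had higher values in the HuR-FKO-labelled library, and their part in the macrophage marker values was not tested. Adipocyte genes, the cells with Cre, were at least 2-fold higher in the HuR-FKO-labelled library for 11 of 12 at the filter (82.4% of all genes), with a median log2 of 2.41. The count and the median were 4 of 6 and 1.34 for endothelial cells, 7 of 8 and 1.90 for fibroblasts and preadipocytes, and 3 of 4 and 2.07 for smooth muscle cells and pericytes. Red cell and platelet genes were least shifted, with 2 of 6 and a median log2 of 0.47. Of these, 2 were higher in the control-labelled library, 1 of them at least 2-fold: Alas2, the first enzyme of red cell heme synthesis, had 1.92 FPKM in the HuR-FKO-labelled library and 8.14 FPKM in the control-labelled library. The endothelial and red cell medians fell below 0 under the 3 scalings that lower all ratios. The macrophage markers thus lay between the endothelial and the fibroblast genes, and no difference between lists was tested.

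**Figure D4:**
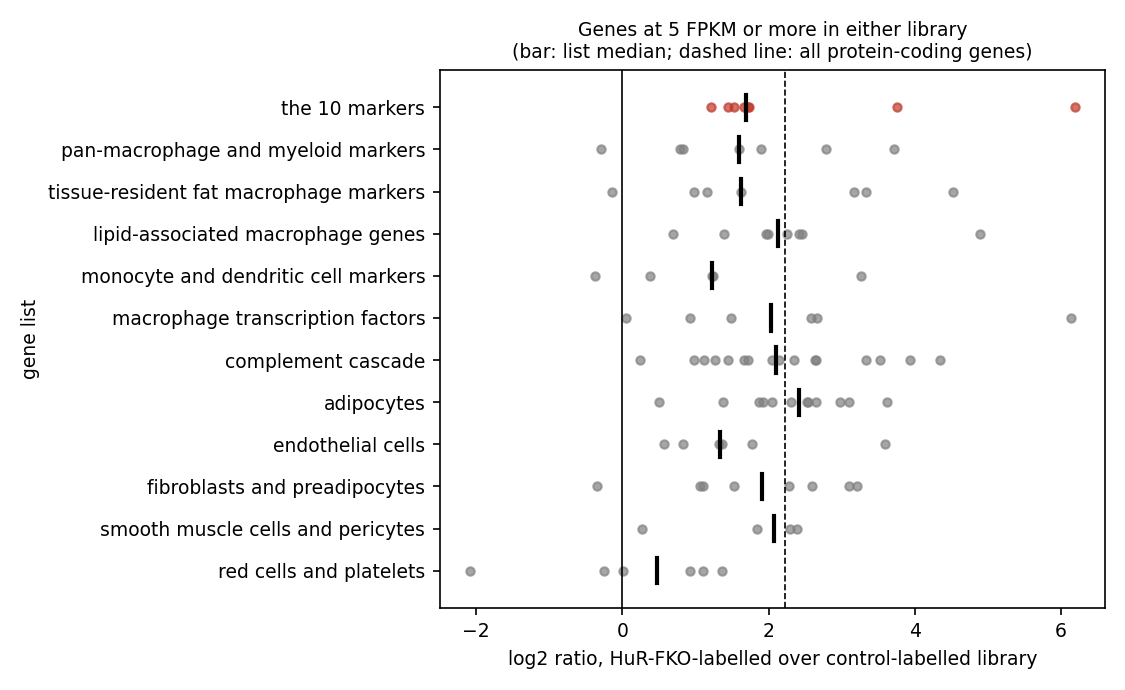
Log2 ratio of the HuR-FKO-labelled over the control-labelled library (x axis) for genes that reached 5 FPKM in at least 1 library, 1 point per gene, by gene list (y axis), with a bar at each list's median and a dashed line at the median of all genes (2.22). Of the 10 markers the 8 at the filter are shown (red), 6 of them in a tight group below the dashed line and Aif1 and Cd14 above it.

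The genes nearest to the middle of the set were found by their distance on the log2 scale from the median level of the 10 markers in each library, Cd68 included, which was 29.6 FPKM in the HuR-FKO-labelled library and 6.16 FPKM in the control-labelled library. The 5 nearest protein-coding genes were Exoc8, Fmo1, Eapp, Wdr83 and Wdr31, at distances of 0.029 to 0.067. The ratio at that point, 4.80, is above those of 7 of the 9 markers with a ratio, so these genes, with ratios of 4.53 to 4.94, resemble no single marker. With only 2 libraries to compare over, nothing more is read from the likeness.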

How the data were processed

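The authors deposited 1 table of FPKM values per gene for both anti-HuR libraries. The submitters' processing notes name TopHat2 2.0.11, Cufflinks 2.1.1 and mm10. The study's methods describe strand-specific, paired-end libraries for its RNA-seq. Not given in the sources used here are whether this holds for the RIP libraries, the gene annotation and the handling of duplicates. FPKM divides by the total of each library, so abundant RNAs lower the values of all other genes. Columns of the authors' own ratios were not used.

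Gene type, transcript length and 3′ UTRs came from GENCODE for mm10, matched on gene ID for 36489 of the 38396 rows (1907 had no match). FPKM below 0.1 was raised to 0.1 before the log2 ratio of HuR-FKO over control was computed. Cd68, at 0 in both libraries, was given no ratio. Other genes below 0.1 FPKM in both enter at a log2 of 0, which matters only without a filter. Protein-coding genes that reached 5 FPKM in at least 1 library are the background. Library totals were estimated from the steps between low FPKM values of genes with a single transcript.

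The 10 markers are all named. Genes of other lists were taken from the 4 with the highest FPKM in the HuR-FKO-labelled library at the filter, plus relatives, ligands and partners of the markers, Adgre1, genes overlapping a marker and the 5 genes nearest to the markers' median. Genes outside this rule were chosen after their values were seen. They include the cytokines at 0, several complement genes, Inpp5d, Lgals12 and genes named although under the filter. Those named for being higher in the control-labelled library were also chosen in that way. Members and lists were chosen with earlier results of these data known. Alternatives changed the pseudocount, filter, scaling and gene rows. Irf8 was not analysed here. Python 3.11.15, pandas 2.3.3, numpy 2.4.6 and scipy 1.17.1 were used.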

Additional observations from a re-analysis of the deposited data

How the results depend on the processing

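Direction on the deposited scale followed the library scaling. Centring on the median gave log2 ratios of -0.23 for C1qa, -0.23 for Csf1r, -0.46 for Mrc1 and -0.14 for Lgals3, so these became lower in the HuR-FKO-labelled library. Upper-quartile scaling gave -0.17 for C1qa, -0.17 for Csf1r, -0.40 for Mrc1 and -0.078 for Lgals3. Scaling to long protein-coding genes gave -0.34 for C1qa, -0.11 for C1qb, -0.062 for C1qc, -0.34 for Csf1r, -0.57 for Mrc1, -0.043 for Lyz2 and -0.25 for Lgals3. Under each of these 3 scalings 2 markers, Aif1 and Cd14, were at least 2-fold higher in the HuR-FKO-labelled library, in place of 9. With no filter 9 markers lay above the median ratio and their median was 0.89 above it, because genes listed at 0 in both libraries enter at a log2 of 0. Over the 14710 genes above 0 in either library, an alternative also added after seeing the data, 2 markers lay above and the median was at -0.25. With 5 FPKM required in both libraries, likewise chosen after seeing the data, 6 lay above and the median was 0.15 above. Each change follows from the constant or the set of genes that the alternative puts in.

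The count of all genes at least 2-fold higher in the HuR-FKO-labelled library was 4589, and 8049, 1870 and 10039 with filters of 1 FPKM, 20 FPKM and none, 2063, 2140 and 1915 with median, upper-quartile and long-gene scaling, and 1530 with 5 FPKM in both libraries. The count at least 2-fold higher in the control-labelled library was 179, and 464, 35 and 881 with those filters, 709, 670 and 775 with those scalings, 64 scaled to TPM, 397 with all gene rows and 46 with 5 FPKM in both libraries. No paired analysis was possible because there is 1 library per genotype and the labels carry no replicate number, and leaving out a library leaves no comparison. Filters and gene rows cannot move a marker's own ratio. Of 54 marker ratios under 2 pseudocounts and 4 scalings, 21 stayed within their counting interval, 18 left it and the 15 above changed direction. Depth limits Cd14 and Csf1r most, with about 0.906 and 16.2 fragments in the control-labelled library.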

Other observations

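Few markers of other immune cells reached 5 FPKM. Among all protein-coding genes, 30.4% were listed at 0 in both libraries, and 5571 of 21127 reached 5 FPKM in at least 1 library. The counts below are to be read against these shares. Of 12 genes of T and NK cells, 4 were listed at 0 in both libraries and 2 reached 5 FPKM, in opposite directions: Lck, a kinase of the T cell receptor, had 15.3 FPKM in the HuR-FKO-labelled library and was listed at 0 in the control-labelled library, and Gzma, a protease of killer cells, had 0.16 FPKM in the HuR-FKO-labelled library and 10.04 FPKM in the control-labelled library. Of 8 genes of B cells, 4 were at 0 in both libraries and only Pax5 reached 5 FPKM, with 7.27 FPKM in the HuR-FKO-labelled library and 1.20 FPKM in the control-labelled library. Of 9 neutrophil genes, 5 were at 0 in both libraries and only the chemokine receptor Cxcr2 reached 5 FPKM, with 8.89 FPKM in the HuR-FKO-labelled library and 0.516 FPKM in the control-labelled library. No gene of the 10 for mast cells and eosinophils reached it, and 6 were at 0 in both libraries. Of 9 mesothelial genes, 2 reached it, both at least 2-fold higher in the HuR-FKO-labelled library (82.4% of all genes). Their median log2 ratio was 2.22, beside 2.22 for all genes.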
